A study of Mus musculus with 20 samples.

Results

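The antioxidant defence genes described here are 10 genes of the enzymes that remove superoxide and peroxides, of glutathione synthesis, and of the Nrf2 pathway: Sod1, Sod2, Cat, Gpx1, Gpx4, Gclc, Gclm, Nqo1, Hmox1 and Nfe2l2. They were taken by symbol from a count table of 29200 genes, and all 10 were among the 12153 genes that averaged 50 or more counts and were tested. The table holds cerebellar RNA of C57BL6/N mice, with 5 WT/WT and 5 304Q/304Q animals aged 2 months and as many aged 12 months, which makes 20 libraries from 1 mouse each. The 304Q/304Q mice carry a knock-in of 304 interrupted CAACAG repeats in both alleles of Atxn3, the gene of spinocerebellar ataxia type 3 (SCA3), and express it from the endogenous locus in every cell that uses it. WT/WT mice carry the normal repeat in both alleles. Library totals lay between 11385380 and 27636687 counts. No group was treated, all 304Q/304Q mice go back to 1 founder line, and all sequenced mice were male.

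Cells meet superoxide mainly as a by-product of respiration. Superoxide dismutases turn it into hydrogen peroxide, in the cytosol by Sod1 and in the mitochondrial matrix by Sod2. Catalase (Cat) in peroxisomes and the selenium enzyme Gpx1 remove the peroxide, and Gpx4 reduces lipid peroxides within membranes and so guards against ferroptosis. The glutathione that Gpx1 and Gpx4 use is made from glutamate and cysteine, with the ligase of the catalytic subunit Gclc and the modifier subunit Gclm as the limiting step. Nfe2l2 encodes Nrf2, a transcription factor that Keap1 keeps low in unstressed cells. Under oxidative stress Nrf2 binds antioxidant response elements (AREs) together with small Maf proteins and raises genes such as Nqo1 (a quinone reductase), Hmox1 (haem oxygenase), Gclc and Gclm.

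The ARE core TGACNNNGC was looked for on both strands in the 250 bases before the transcription start of each gene, with sequences of RefSeq on GRCm38.p6. A window was given for 8 of the 10 genes, and it held the core in 3 of them, Sod1, Gclm and Nfe2l2. No window was given for Hmox1 and Gclc, so that their promoters were not searched. Of all 32851 windows of this length, 10.2% held it. A match is a string of letters and not a site of binding. The 80 bases around each match are shown in the direction of the gene, with the core in capitals. Of the members searched, these are the ones whose near promoter carries the letters that Nrf2 can read. In Sod1 and Gclm the core lies on the opposite strand, and it ends 47 and 125 bases before the start. In Nfe2l2 it lies on the strand of the gene, 231 bases before the start.
Sod1, chr16:90220670-90220749, plus strand: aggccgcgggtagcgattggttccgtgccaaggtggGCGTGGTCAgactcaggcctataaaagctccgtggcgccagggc
Gclm, chr3:122245387-122245466, plus strand: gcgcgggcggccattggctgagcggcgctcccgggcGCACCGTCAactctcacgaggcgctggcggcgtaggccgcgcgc
Nfe2l2, chr2:75704834-75704913, minus strand: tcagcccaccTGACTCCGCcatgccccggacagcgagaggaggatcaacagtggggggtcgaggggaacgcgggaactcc

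Per length, the 10 genes covered a wide range of levels in the cerebellum. The highest was Gpx4, with 143 ± 8.89 RPKM (read counts scaled by library size and by the length of a gene's exons, mean ± SD, n = 5) in WT/WT mice at 2 months. Gpx1 followed at 36.7 ± 2.94 RPKM, Sod1 at 27.5 ± 3.96 and Cat at 25.5 ± 0.981. At this age Sod1 and Cat lay within 1 SD of each other. Gclc stood at 21.3 ± 1.22 RPKM, Gclm at 14.2 ± 1.01 and Sod2 at 11.4 ± 1.36. The transcription factor and 2 of its best known targets were the lowest, Nfe2l2 at 7.29 ± 1.26 RPKM, Nqo1 at 5.02 ± 0.936 and Hmox1 at 2.98 ± 0.604. The length is that of all annotated exons of a gene together (3970 bases for Sod1, 10008 for Sod2), so that the level of a gene with a shorter transcript is understated. Gpx4 lies at chr10:80047166-80056439 (plus strand), Sod1 at chr16:90220754-90226329 (plus strand), Gclm at chr3:122245557-122270732 (plus strand) and Nfe2l2 at chr2:75675513-75704641 (minus strand) of GRCm38. Raw counts ran from 45 in the library with the least Hmox1 to 7191 in that with the most Gpx4.

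At 2 months, no antioxidant defence gene differed between the genotypes. Their log2 fold changes of 304Q/304Q against WT/WT lay between -0.13 for Nfe2l2 and 0.04 for Cat, with a median of -0.011, where the median of all genes tested was -0.0017. None of the 10 reached an adjusted p of 0.05 (edgeR, quasi-likelihood test, Benjamini-Hochberg over all genes tested). At an unadjusted p under 0.05 the count was also 0, and DESeq2 called 0. Of all genes 0.0494% passed. In no member did the groups lie apart, as they did in 1.05% of all genes. The intervals were narrow for the abundant enzymes. For Gpx4 the 95% confidence interval of the log2 fold change ran from -0.11 to 0.14, and for Gclc from -0.09 to 0.14. They were wide for Nqo1 (-0.35 to 0.33) and Hmox1 (-0.41 to 0.37), which had few counts. Atxn3 itself, the gene with the knock-in, stood at 278 ± 42.1 normalized counts in WT/WT against 192 ± 30.9 in 304Q/304Q mice of this age (log2 fold change -0.54 ± 0.11 SE, adjusted p = 0.0916 by edgeR), and 222 ± 16.0 and 203 ± 17.6 at 12 months. A normalized count is the count brought to the average library size.

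**Figure D1:**
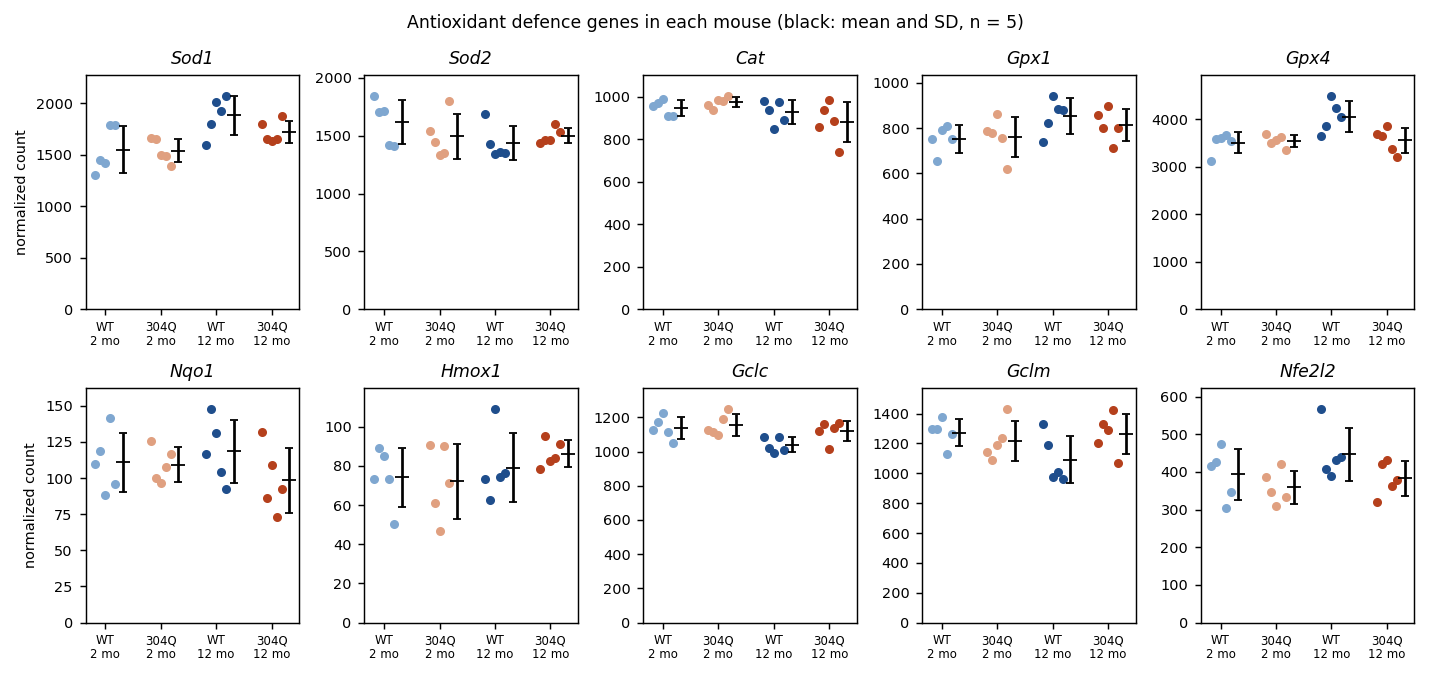
Normalized counts (y axis, from 0) of the 10 antioxidant defence genes in each of 20 mice, in 4 groups of 5, where points are mice and black marks the mean and SD. Groups overlap in every gene. Gpx4 reached 4058 ± 328 in WT/WT mice at 12 months and 3560 ± 264 in 304Q/304Q mice of the same age.

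At 12 months, Gpx4 was the only member past the threshold between genotypes. Its normalized counts in the WT/WT mice were 3649, 3862, 4497, 4234 and 4050. In the 304Q/304Q mice they were 3695, 3658, 3865, 3376 and 3206. The ranges overlapped, since the WT/WT mouse with the least Gpx4 and the 304Q/304Q mouse with the most lay inside the range of the other genotype. Gpx4 fell by 12.3% in 304Q/304Q mice (log2 fold change -0.19 ± 0.06 SE, 95% confidence interval -0.31 to -0.06, adjusted p = 0.0399 by edgeR), and an exact permutation test of its log2 CPM (library-scaled counts) gave a two-sided p of 0.0556, where the smallest possible was 0.00794. The call was lost in 7 of the 20 fits that left out 1 library. No member reached a log2 fold change of 0.5 in size, the limit set for a differentially expressed gene. Of all genes tested, 12.5% passed the adjusted p in this comparison, against 1 of 10 members. The groups lay apart in 8.94% of all genes and in 0 of 10 members.

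The other peroxide and superoxide enzymes did not pass at 12 months. Sod1 averaged 1881 ± 189 normalized counts in WT/WT against 1721 ± 110 in 304Q/304Q mice (log2 fold change -0.13 ± 0.08 SE). For Sod2 the means were 1435 ± 147 and 1500 ± 65.3 (0.06 ± 0.09). Cat stood at 925 ± 56.0 and 880 ± 93.0 normalized counts, a log2 fold change of -0.07 ± 0.07. Gpx1 stood at 854 ± 77.8 and 816 ± 70.3, a log2 fold change of -0.07 ± 0.08. Each of these 4 intervals included 0, and their adjusted p-values by edgeR lay between 0.337 and 0.67.

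Both subunits of the glutathione ligase had higher means in 304Q/304Q mice at 12 months, without passing the threshold. Gclm counts were 1328, 1189, 977, 1009 and 959 in WT/WT mice and 1201, 1330, 1288, 1425 and 1071 in 304Q/304Q mice after normalization. In WT/WT mice 3 of 5 lay below every 304Q/304Q mouse, and the other two among them. The log2 fold change of Gclm was 0.21 ± 0.09 SE (unadjusted p = 0.0322, adjusted p = 0.141 by edgeR). Without the first WT/WT mouse of 12 months it was 0.29 with an adjusted p of 0.0246, and with the libraries' trends with GC content and length removed it was 0.10 with an adjusted p of 0.339. Gclc had 1039 ± 44.2 and 1121 ± 60.9 normalized counts, a log2 fold change of 0.11 ± 0.06 (adjusted p = 0.215). The ratio of Gclc to Gclm within each library, which does not depend on the scaling, differed by -0.11 on the log2 scale between the genotypes at 12 months (two-sided exact permutation p = 0.373, adjusted p = 0.426 over 8 tests). Gclc was the more abundant of both per length of all annotated exons, with a ratio of 1.60 in WT/WT against 1.49 in 304Q/304Q mice. In counts the order was the reverse, with mean log2 ratios of Gclc to Gclm of -0.061 and -0.17.

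Neither the gene of Nrf2 nor its 2 targets with few counts passed at 12 months. Nfe2l2 had 567, 408, 390, 431 and 439 normalized counts in WT/WT mice and 320, 422, 433, 362 and 377 in 304Q/304Q mice, which overlap (log2 fold change -0.22 ± 0.12 SE, adjusted p = 0.233 by edgeR). Nqo1 had 119 ± 21.9 and 98.5 ± 22.6 normalized counts (log2 fold change -0.27 ± 0.17, interval -0.61 to 0.08). For Hmox1 they were 79.2 ± 17.6 and 86.3 ± 6.91 (0.13 ± 0.19, interval -0.26 to 0.51). Both intervals are wide enough to hold a change of the size seen for Gpx4. Across the 10 members, 4 log2 fold changes were positive and 6 negative with a median of -0.07, and the median of all genes tested was -0.0039.

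With age, Sod1 and Gpx4 passed the threshold in WT/WT mice, both with higher counts at 12 months. Sod1 normalized counts were 1307, 1447, 1423, 1787 and 1791 at 2 months and 1597, 1803, 2012, 1924 and 2072 at 12 months. The lowest older mouse lay below 2 younger mice, and the others above them all. Sod1 rose by 21.2% (log2 fold change 0.28 ± 0.08 SE, adjusted p = 0.0335 by edgeR, two-sided exact permutation p = 0.0397). Gpx4 was at 3132, 3595, 3603, 3680 and 3550 at 2 months, and at the 12-month values given above. It rose by 15.6% (log2 fold change 0.21 ± 0.06, adjusted p = 0.0272 by edgeR, exact permutation p = 0.0159). The call was lost in 6 of the 20 fits that left out 1 library for Sod1, and in 4 for Gpx4. Neither passed with only the groups compared. With the libraries' trends with GC content and length removed, Gpx4 stood at 0.01 (adjusted p = 0.915 by edgeR). The WT/WT mice of 12 months enter this comparison and that of the genotypes at 12 months alike, so that the higher Gpx4 of these 5 mice counts in both. Among all genes 11.5% passed with age in WT/WT mice, against 2 of the 10 members, and the groups lay apart in 6.57% of all genes and in 0 members.

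Further members with an unadjusted p under 0.05 with age in WT/WT mice were Gpx1, Gclc and Gclm, none of which passed after adjustment. Gpx1 had a log2 fold change of 0.18 ± 0.08 SE (adjusted p = 0.162 by edgeR), Gclc of -0.13 ± 0.06 (adjusted p = 0.136) and Gclm of -0.22 ± 0.09 (adjusted p = 0.119). Sod2 stood at -0.17 ± 0.09, Nfe2l2 at 0.18 ± 0.12, Nqo1 at 0.10 ± 0.16, Hmox1 at 0.10 ± 0.19 and Cat at -0.03 ± 0.07. Without the first WT/WT mouse of 12 months, 4 members passed, with Gclm at -0.30 (adjusted p = 0.0173) and Sod2 at -0.24 (adjusted p = 0.0419) beside Sod1 and Gpx4. With the trends with GC content and length removed, Gclm stood at -0.09 (adjusted p = 0.432 by edgeR), Sod2 at 0.0051 (adjusted p = 0.971) and Gpx1 at 0.02 (adjusted p = 0.893). With surrogate variables in edgeR, Nfe2l2 was the one member that passed (0.37, adjusted p = 0.0353), and Gpx4 (0.15, adjusted p = 0.112) and Sod1 did not. The ratio of Sod1 to Sod2 per mouse was higher by 0.46 on the log2 scale at 12 months (exact permutation p = 0.0635, adjusted p = 0.426 over 8 tests). Per length it went from 2.41 to 3.30, and it spread widely between mice of a group (SD 0.38 and 0.29 on the log2 scale).

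In 304Q/304Q mice, no member passed with age. Gpx4 had 3548 ± 131 normalized counts at 2 months and 3560 ± 264 at 12 months, a log2 fold change of 0.0045 with an interval from -0.12 to 0.13. Sod1 went from 1541 ± 115 to 1721 ± 110 (0.16 ± 0.08 SE, adjusted p = 0.313 by edgeR). Cat was the one member with an unadjusted p under 0.05. Its normalized counts were 961.5, 938.9, 984.9, 980.7 and 1003 in the younger and 857.4, 937.1, 982.7, 885.2 and 737.8 in the older mice, so that 4 of the 5 older mice lay below all younger ones (log2 fold change -0.15 ± 0.06, adjusted p = 0.205 by edgeR, two-sided exact permutation p = 0.0476). With 3 surrogate variables in the edgeR fit, Sod1 (0.16, adjusted p = 0.0158) and Cat (-0.18, adjusted p = 0.0163) passed. Of all genes, 7.26% passed in this comparison, and the groups lay apart in 7.8% of them and in 0 members. The interaction term, which compares the genotype effect at 12 months with that at 2 months, was passed by 1.95% of all genes and by 0 members. Closest were Gpx4 (-0.20 ± 0.09, adjusted p = 0.243 by edgeR) and Gclm (0.27 ± 0.13, adjusted p = 0.307 by edgeR), both with an unadjusted p under 0.05. That Gpx4 rose with age in WT/WT mice and not in 304Q/304Q mice is therefore not shown to be a difference between the genotypes.

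**Figure D2:**
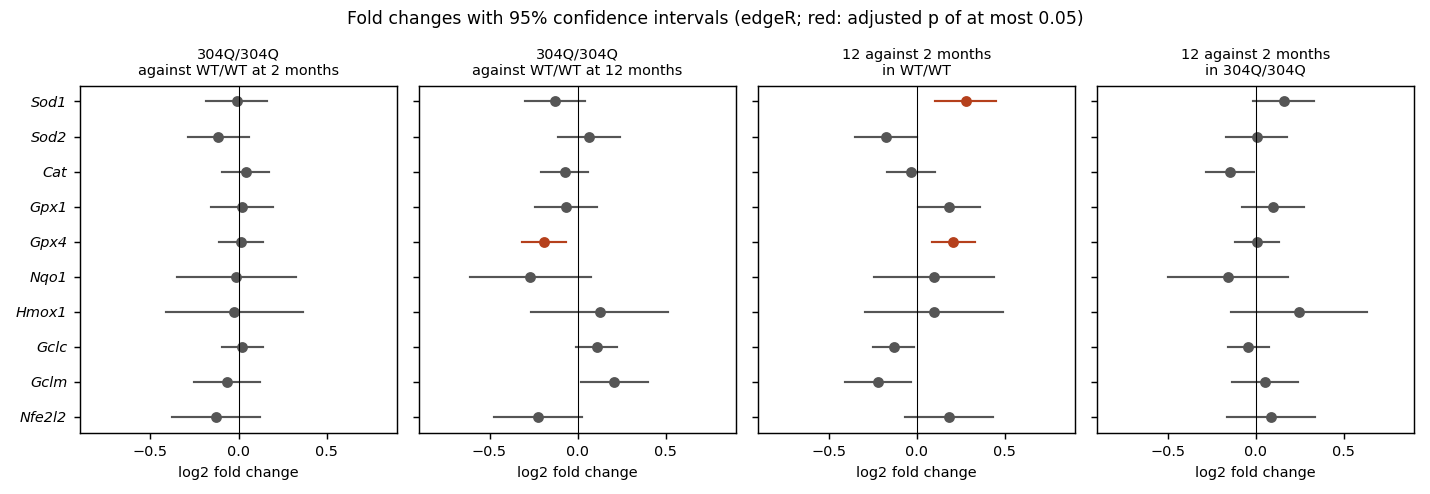
Log2 fold changes (x axis) of the 10 genes (y axis) in 4 comparisons by edgeR, with 95% confidence intervals as lines; red marks an adjusted p of at most 0.05. Only Gpx4 passed between genotypes at 12 months (-0.19), Sod1 (0.28) and Gpx4 (0.21) passed with age in WT/WT mice, and no gene passed in the other comparisons.

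Between mice of the same group, the members varied together in opposing sets. After the group means were taken off the log2 CPM, 9 of the 45 pairs of members were correlated over the 20 libraries past an adjusted p of 0.05 in permutation tests within groups, 3 positively and 6 negatively. Mice with more Sod1 had less Gclm (Pearson r = -0.794, permutation p = 3e-05, adjusted p = 0.00135, Spearman rho = -0.821, permutation p = 2e-05, r = -0.849 without the 2 mice farthest from the median of Sod1). They also had less Sod2 (r = -0.737, permutation p = 0.00314, adjusted p = 0.0241, rho = -0.752, permutation p = 0.003, r = -0.647 without the 2 farthest). Gpx1 and Gpx4 varied in the same direction (r = 0.59, permutation p = 0.00779, adjusted p = 0.0389, rho = 0.674, permutation p = 0.00366, r = 0.471 without the 2 farthest). Cat and Gclm did so as well (r = 0.659, permutation p = 0.00321, adjusted p = 0.0241, rho = 0.704, permutation p = 0.00287, r = 0.678 without the 2 farthest). In the single groups, r ran from -0.979 to -0.707 for Sod1 with Gclm and from 0.636 to 0.909 for Cat with Gclm. It was near 0 in at least 1 group for Sod1 with Sod2 (-1.0 to -0.043) and for Gpx1 with Gpx4 (0.0645 to 0.96).

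The base composition of these genes ranges widely. The longest annotated transcript of Gpx4 has 60.2% G and C and that of Gpx1 57.2%, whereas Sod2 has 42.2% and Gclm 42.1%. Sod1, with 47.6%, lies between. The libraries differed in how strongly the counts of all genes followed GC content. The slope of a library's log2 CPM, relative to the mean of all libraries, was 0.0971 ± 0.0958 per 10% of GC in the WT/WT mice of 12 months and -0.025 ± 0.0527 in the 304Q/304Q mice of that age. At 2 months it was -0.0506 ± 0.11 in WT/WT against -0.0213 ± 0.0664 in 304Q/304Q mice. Among the WT/WT mice of 12 months the first had a slope of -0.0696 and the others between 0.114 and 0.175. Within groups, Sod1 followed the GC slope (r = 0.934, permutation p = 1e-05, the smallest that 100000 resamples give, adjusted p = 0.0002 over 20 relations, rho = 0.92, permutation p = 6e-05, r = 0.908 without the 2 libraries of the most distant slopes). Gclm went against it (r = -0.793, permutation p = 4e-05, adjusted p = 0.00025, rho = -0.752, permutation p = 0.00017, r = -0.764 without the 2 farthest). Gpx4, whose exons span 1724 bases, was tied to the slope with length (r = -0.932, permutation p = 2e-05, adjusted p = 0.0002, rho = -0.856, permutation p = 5e-05, r = -0.916 without the 2 farthest), and less to that with GC (r = 0.417, permutation p = 0.108, adjusted p = 0.167, rho = 0.34, permutation p = 0.183, r = 0.0801 without the 2 farthest). Further members passed an adjusted p of 0.05 in these permutation tests. With the GC slope they were Sod2 (r = -0.803, adjusted p = 0.00763), Nfe2l2 (-0.687, 0.0203), Cat (-0.636, 0.00025), Gpx1 (0.586, 0.0237) and Gclc (-0.542, 0.0453). With the length slope they were Sod2 (0.677, 0.00064) and Gpx1 (-0.583, 0.0237).

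**Figure D3:**
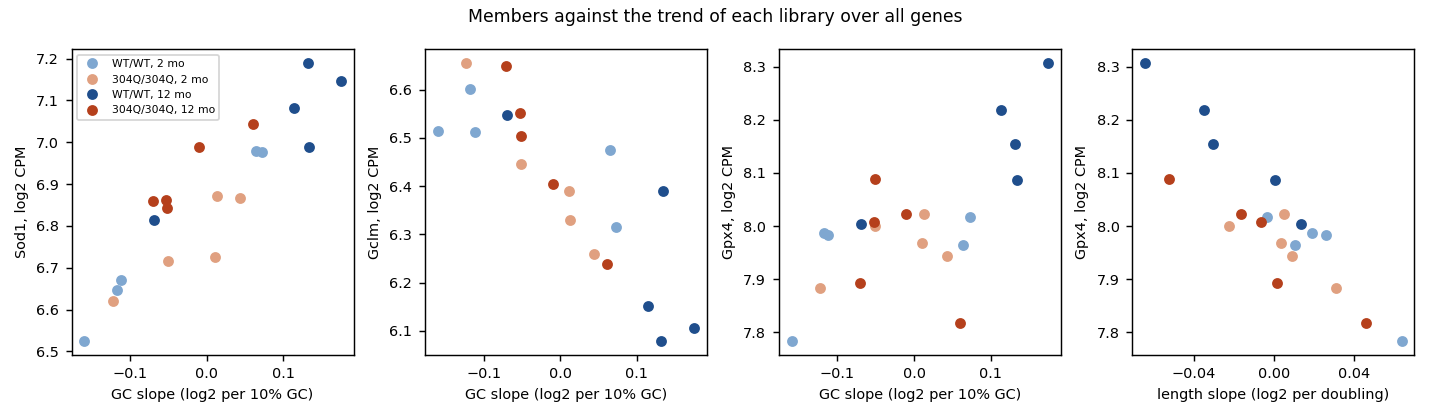
Log2 CPM of Sod1, Gclm and Gpx4 (y axes) against the slope of each library's counts over all genes with GC content (x axis, log2 per 10% of GC) or with length (x axis of the right panel, log2 per doubling); points are 20 mice coloured by group. Sod1 rose with the GC slope (r = 0.934 within groups), Gclm fell with it (-0.793) and Gpx4 fell with the length slope (-0.932).

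When the trends with GC content and length were taken out of each library, 1 of the 45 pairs stayed past an adjusted p of 0.05. This was Sod1 with Cat (r = -0.785, permutation p = 2e-05, adjusted p = 0.0009, rho = -0.856, permutation p = 3e-05, r = -0.785 without the 2 farthest). Before the removal, Cat went against the GC slope within groups (r = -0.636) and Sod1 with it. Whether this pair is free of the library trends was not tested. Sod1 with Gclm stood at r = -0.459 (permutation test, adjusted p = 0.214) and Gpx1 with Gpx4 at 0.138 (adjusted p = 0.883). The calls of Gpx4 were lost in the same fit. Its log2 fold change between genotypes at 12 months became -0.07 (adjusted p = 0.355 by edgeR) and that with age in WT/WT mice 0.01 (adjusted p = 0.915). Sod1 kept its call with age in WT/WT mice, at 0.28 and an adjusted p of 0.033 by edgeR. It lost the call with surrogate variables (0.16, adjusted p = 0.0712). The removal uses only a gene's GC content and length, and it scarcely moved Sod1. In the first WT/WT mouse of 2 months, Sod1 went from 6.526 to 6.518 log2 CPM. Sod1 nevertheless followed the GC slope within groups (r = 0.934), and whether its rise with age depends on that slope was not tested. The group means of the length slope, in log2 per doubling of length, ran opposite to the Gpx4 means: 0.0232 ± 0.0251 and -0.0229 ± 0.0307 in WT/WT mice at 2 and 12 months, and 0.00515 ± 0.019 and -0.00546 ± 0.0353 in 304Q/304Q mice.

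**Figure D4:**
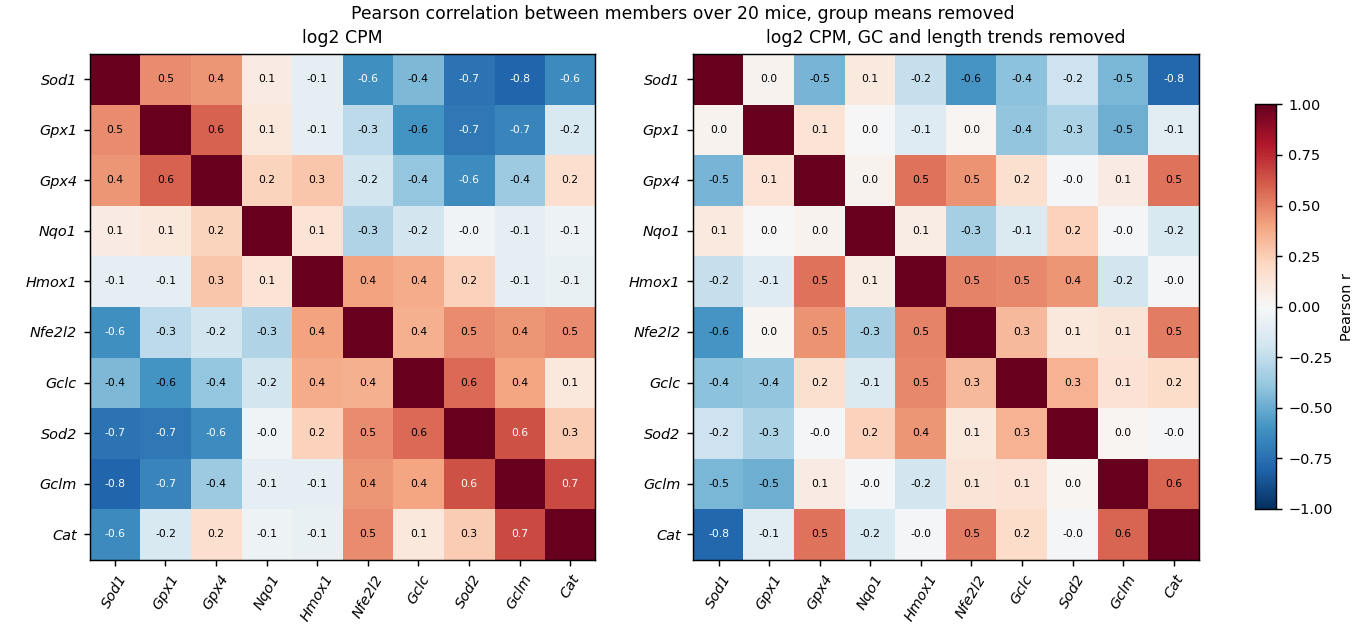
Pearson correlations between the 10 genes over 20 mice with group means taken off, on log2 CPM (left) and with each library's trends with GC content and length removed (right); both axes list the genes. On the left Sod1 and Gclm stand at -0.794 and 9 of 45 pairs pass; on the right 1 pair passes, Sod1 with Cat (-0.785).

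The genes whose within-group pattern was most like that of Gpx4 were Surf1 (r = 0.88 over 20 libraries), Myl12b (0.866) and Mapk3 (0.861). For Sod1 they were the ribosomal protein gene Rpl27a (0.926) and Ubxn6 (0.924). For Nfe2l2 they were Lin54 (0.874), Mrs2 (0.839) and Acer3 (0.825). These values are descriptions, and the points share the library trends given above.

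Markers of several cerebellar cell types differed between genotypes at 12 months, as Gpx4 did. The summed normalized counts of 8 oligodendrocyte markers lay between 74200 and 84740 in WT/WT mice and between 48730 and 67410 in 304Q/304Q mice, with 4 of 8 genes lower past the threshold and 0 higher. The 8 Purkinje cell markers summed to between 116700 and 126400 and between 91820 and 98810, with 6 of 8 lower. Of the 8 astrocyte and Bergmann glia markers 3 were lower (sums of 78190 to 80240 and 64380 to 70440), of 5 blood genes 4 (1649 to 3503 and 1367 to 1589), of 8 endothelial markers 1 (3585 to 4063 and 3279 to 3746) and of 8 granule cell markers 0 (78550 to 86510 and 76060 to 88400). Of 7 microglia markers tested 1 was higher (2205 to 2615 and 2256 to 2941). Among all genes tested 12.5% passed in this comparison, and 1 of 8 or 1 of 7 is near that share. The astrocyte and Bergmann glia markers had mixed signs, 3 positive and 5 negative (median log2 fold change -0.077). All of these markers had a mean above 1 normalized count in each group, and of the choroid plexus markers 1 fell under it, in WT/WT mice at 2 months. At 2 months the oligodendrocyte sums did not overlap either (80530 to 92590 in WT/WT and 69770 to 78980 in 304Q/304Q mice). There 1 of 8 markers was lower, beside 0.0494% of all genes called, and Gpx4 stood at 0.015. With age in 304Q/304Q mice, 6 of 8 oligodendrocyte and 6 of 8 Purkinje cell markers were lower. In that comparison 7.26% of all genes were called and Gpx4 stood at 0.0045. In bulk tissue, fewer cells of a type and less RNA per cell cannot be told apart, and the part of these cell types in the values of the members was not tested. Choroid plexus markers summed to more than 1000 normalized counts in 6 libraries, up to 29840 in 1 WT/WT mouse of 12 months, against 148.6 in the lowest library. Of these libraries 3 were WT/WT mice of 12 months, 2 were 304Q/304Q mice of 12 months and 1 was a 304Q/304Q mouse of 2 months, so that without them 2 WT/WT mice of 12 months were left, those with the highest Gpx4 of their group (4497 and 4234). Without these 6 libraries, Gpx4 stood at -0.36 between genotypes at 12 months (adjusted p = 0.0116 by edgeR) and at 0.31 with age in WT/WT mice (adjusted p = 0.0169), and Sod1 at 0.34 (adjusted p = 0.0578).

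The wider antioxidant network passed at 12 months about as often as all genes did. Of 70 other genes in 7 classes, 68 were tested, and between genotypes at 12 months 304Q/304Q mice had 2 of them higher and 7 lower past the adjusted p, with a median log2 fold change of -0.08. These 9 genes are 13.2% of the 68, beside 12.5% of all genes tested. The lower genes were Fth1, the ferritin heavy chain that stores iron, Prdx6, a peroxiredoxin that also acts on phospholipid peroxides, Txnip, an inhibitor of thioredoxin, the glutathione transferases Gstm1, Gstm7 and Gsta4, and the sestrin Sesn1. The higher genes were Bach1 and Bach2, repressors that compete with Nrf2 for AREs. Fth1 averaged 15980 ± 1684 normalized counts in WT/WT against 10740 ± 833 in 304Q/304Q mice (log2 fold change -0.57 ± 0.09 SE, adjusted p = 5.33e-05 by edgeR). Prdx6 had 1840 ± 148 and 1320 ± 58.6 (-0.48 ± 0.06, adjusted p = 4.63e-06 by edgeR). In these and in Gstm1 (-0.40 ± 0.07) every 304Q/304Q mouse lay below every WT/WT mouse. Bach2 had 164 ± 26.1 and 276 ± 75.7 normalized counts (0.76 ± 0.18, adjusted p = 0.00625), and Txnip 461 ± 126 and 295 ± 55.0 (-0.64 ± 0.20, adjusted p = 0.0321), and in both the groups overlapped. The fifth of the largest changes was that of Bach1 (0.46 ± 0.13, adjusted p = 0.0208). With the trends of GC content and length taken out, 6 were higher and 7 lower, and all 9 were among them. With surrogate variables in edgeR or DESeq2, 6 of the 9 kept the call, and Bach1, Txnip and Sesn1 lost it. Without the 6 libraries high in choroid plexus markers, Bach2, Txnip and Sesn1 lost the call and 6 of the 9 kept it.

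By class, the lower genes at 12 months were spread over peroxiredoxins and thioredoxins (3 of 15), other glutathione peroxidases and transferases (3 of 13) and haem, quinone and iron handling (1 of 7), and both higher ones belonged to the 9 genes of Nrf2 control. These classes are small, and 12.5% of all genes passed in this comparison. No gene passed among 13 of glutathione supply and recycling, 8 of NADPH supply and 3 of superoxide and copper. In the transferase class 12 of 13 log2 fold changes were negative (median -0.19) and in that of haem, quinone and iron handling 7 of 7 (median -0.12), where 49.1% of all genes tested were positive. The genes of a class were measured in the same libraries, so that their signs are not independent of each other. Whether the signs hold with the libraries' trends removed was not tested.

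Between 2 and 12 months, WT/WT mice gained in 7 of the 68 genes and lost in 0. This is 10.3% of them, beside 11.5% of all genes. The largest changes were those of Gpx3, a secreted glutathione peroxidase (log2 fold change 0.75 ± 0.19 SE, adjusted p = 0.0115 by edgeR), the ferritin chains Ftl1 (0.48 ± 0.11) and Fth1 (0.43 ± 0.09), Gsta4 (0.35 ± 0.09) and Sqstm1 (0.23 ± 0.06), the autophagy receptor that also binds Keap1. Gpx3 lost its call without the libraries high in choroid plexus markers, which were 3 of 5 WT/WT mice at 12 months and 0 of 5 at 2 months. It also lost it with surrogate variables in edgeR or DESeq2. Ftl1, Fth1 and Gsta4 kept theirs in each of these fits, and Sqstm1 lost its call only with surrogate variables in edgeR. In 304Q/304Q mice 3 were higher with age, Bach2 (0.81 ± 0.18), Ftl1 (0.35 ± 0.11) and Sqstm1 (0.28 ± 0.06), and 2 lower, Sesn1 (-0.22 ± 0.06) and Prdx6 (-0.21 ± 0.06), in all 7.35% of the 68 beside 7.26% of all genes. The interaction of genotype and age was passed by Gsta4 (-0.57 ± 0.12, adjusted p = 0.0127 by edgeR) and Prdx6 (-0.40 ± 0.08, adjusted p = 0.00979), 2.94% of the 68 beside 1.95% of all genes. No member did so. Without the 6 libraries with choroid plexus markers, 0 of the 68 genes passed the interaction. No gene of the 68 passed between genotypes at 2 months by edgeR or by DESeq2, and Fth1 did with surrogate variables. The sums of the oligodendrocyte and Purkinje cell markers given above also differed between genotypes at 12 months, and their part in these genes was not tested.

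**Figure D5:**
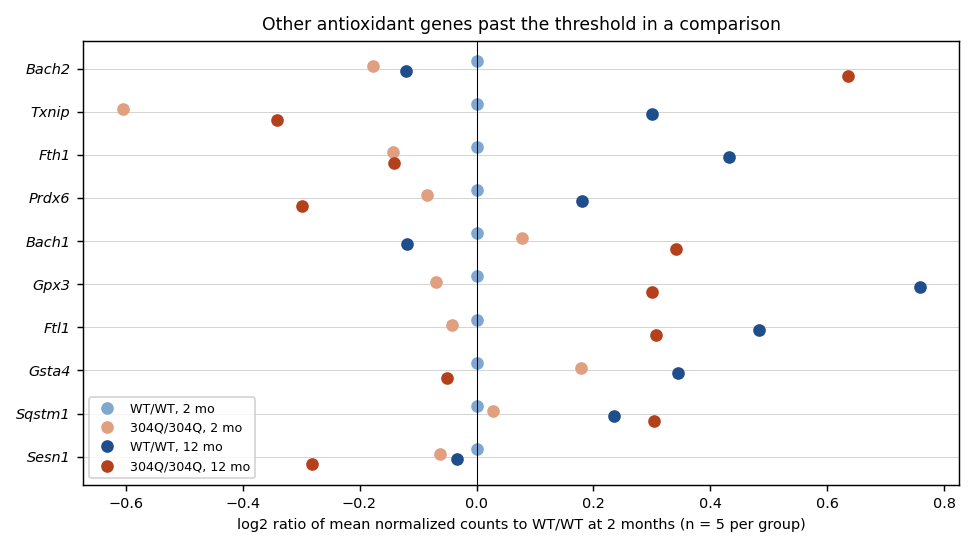
Log2 ratio of mean normalized counts (x axis, n = 5 mice per group) to the WT/WT mice of 2 months for the other antioxidant genes with the largest changes past the threshold (y axis). For Fth1 the WT/WT mice of 12 months stand highest (15980 normalized counts) and the 304Q/304Q mice of 12 months at 10740; Bach2 is highest in 304Q/304Q mice at 12 months (276).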

How the data were processed

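The authors aligned reads of polyA-enriched, stranded libraries to GRCm38 (Ensembl v91) with STAR (2.4.5b in the processing notes) and obtained gene counts by Rsubread. The deposited values are whole-number counts without normalization. The strand setting of the counting is not given in the sources used here: exons of Gclm overlap an antisense gene, and Gpx4 has a processed pseudogene, so that reads of these can be shared. The labels name the wild-type alleles as those of ataxin-2; the series' design names ataxin-3, which was used. Library totals lay between 11385380 and 27636687 counts. Symbols and positions came from GENCODE M21 on GRCm38 for 29138 of 29200 gene IDs.

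Genes averaging 50 or more counts were tested with edgeR 4.0.16 (TMM, quasi-likelihood, R 4.3.3) in 1 model of 4 groups. Calls needed 0.05 or less after Benjamini-Hochberg adjustment over 12153 genes, and differentially expressed genes also a log2 fold change of 0.5 or more in either direction. Confidence intervals use the t distribution of that fit. Log2 CPM used a prior count of 2. The common biological coefficient of variation was 0.113. Replicates are separate mice and differed by more than counting error (the closest pair had a chi-square of 4.43 per degree of freedom). Trends with GC content (of a gene's longest transcript) and length (of all its annotated exons together) were fitted per library by loess and used as offsets. Correlations used 100000 permutations within groups. The fits were tested on simulated data. Named genes are all members, the other antioxidant genes past the threshold with at most 5 of the largest changes per comparison (the further genes of a count of 7 or fewer were named after their values were seen), and the 3 genes most like each called member and Nfe2l2, of which 1 is not reported here. Alternatives were DESeq2 1.42.0, surrogate variables (sva 3.50.0), other filters and scaling, the groups compared alone, the replicate block, the trends, and each library left out. Leaving out the 6 libraries high in choroid plexus markers was chosen after seeing the data. The members and lists were chosen with earlier results of these data known.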

Additional observations from a re-analysis of the deposited data

Results flagged for a closer look

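In 3 of the 40 combinations of a member and a group, 1 mouse stood far from the other 4, by a gap of over 0.71 of the range of the group; chance gives this in about 1 group of 20. The first WT/WT mouse of 12 months had the most Sod2 (1692 normalized counts, the others between 1346 and 1429) and the most Nfe2l2 (566.9, the others between 390 and 439). The first WT/WT mouse of 2 months had the least Gpx4 (3132, the others between 3550 and 3680). These 2 libraries had GC slopes of -0.0696 and -0.16, the lowest of their groups.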

How the results depend on the processing

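Gpx4 kept its call between genotypes at 12 months in 13 of 20 fits without 1 library (lost without the WT/WT mice 3, 4 or 5 and the 304Q/304Q mice 2, 4 or 5 of 12 months and the 304Q/304Q mouse 2 of 2 months) and in 7 of 10 other settings. Members called there fell to 0 without a filter on low counts, with only the groups compared and with GC and length trends removed, and ran from 0 to 2 with each library left out. With age in WT/WT mice, 1 member passed with surrogate variables in edgeR or DESeq2 (Nfe2l2), with the trends removed (Sod1) and without the libraries high in choroid plexus markers (Gpx4), 0 with only the groups compared, and 0 to 4 with each library left out (4 without WT/WT mouse 1 of 12 months, 0 without mouse 1 of 2 months or mouse 3, 4 or 5 of 12 months; Sod1 was also lost without mouse 2 or 3 of 2 months). With age in 304Q/304Q mice, 2 passed with surrogate variables in edgeR or DESeq2 and 0 without any single library. No member passed at 2 months or in the interaction under any setting. The replicate block left 1 call at 12 months and 2 with age in WT/WT mice, and changed no call of a member. Most same-numbered mice did not deviate together (r from -0.323 to 0.551 over 30 pairs, above 0.1 in 6). The first WT/WT mice of 2 and 12 months did, with the r of 0.551, and the fourth of these groups had 0.271. The cause of these changes was not tested.

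For the other antioxidant genes, surrogate variables gave 1 call at 2 months, 4 with age in WT/WT mice (edgeR), 9 (edgeR) and 10 (DESeq2) with age in 304Q/304Q mice, and 5 in the interaction, as did DESeq2 alone. Without a filter 3 passed with age in 304Q/304Q mice and 4 in the interaction, which also had 4 with the trends removed, and without the libraries high in choroid plexus markers these were 1 and 0. With each library left out, calls ran from 6 to 15 between genotypes at 12 months and from 5 to 15 with age in WT/WT mice (15 in each without WT/WT mouse 1 of 12 months), from 2 to 6 with age in 304Q/304Q mice and from 2 to 5 in the interaction. Over all genes, 6 calls at 2 months became 23 with DESeq2, 46 or 52 with surrogate variables (edgeR, DESeq2), 18 with the trends removed and 10 without a filter; 1398 with age in WT/WT mice became 819 with surrogate variables (edgeR), 739 with only the groups compared and 2542 without WT/WT mouse 1 of 12 months; 882 with age in 304Q/304Q mice became 1505 or 1659 with surrogate variables; and 237 in the interaction became 395 with DESeq2 and 407 with DESeq2 and surrogate variables. Without the libraries high in choroid plexus markers the counts were 1 at 2 months, 651 at 12 months (1523 with them), 431 with age in 304Q/304Q mice and 94 in the interaction.

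Signs of uncalled members turned as follows. Between genotypes at 12 months, Sod2 stood at -0.0606 with the trends removed, Gpx1 at 0.047 and 0.0546 with surrogate variables (edgeR, DESeq2) and 0.0381 with the trends removed, and Hmox1 at -0.0519 and -0.0458 with surrogate variables and -0.0239 without the choroid plexus libraries. With age in WT/WT mice, Sod2 stood at 0.00512 and Hmox1 at -0.0145 with the trends removed, Cat at 0.004 and 0.000439 and Nqo1 at -0.0739 and -0.0779 with surrogate variables, and Hmox1 ran from -0.0461 to 0.173 with each library left out. With age in 304Q/304Q mice, Gpx4 stood at -0.0216 and -0.0199 with surrogate variables, -0.00177 without a filter, -0.0274 with the trends removed, -0.0592 without the choroid plexus libraries and from -0.0266 to 0.0363 with each library left out. Nqo1 and Hmox1 had the fewest counts, with means of 110 and 78.3, and the widest intervals.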
